A study of Mus musculus with 2 samples.

Results

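Bone morphogenetic proteins (BMPs) are secreted dimers that bind paired serine/threonine kinase receptors, which phosphorylate SMAD1, SMAD5 and SMAD9. These SMADs join SMAD4 in the nucleus and switch on target genes, of which the Id genes are the best known, and ID proteins in turn hold E proteins off DNA. The signal is limited outside the cell by antagonists such as Sostdc1, at the membrane by the pseudoreceptor Bambi and inside the cell by the inhibitory SMADs Smad6 and Smad7, and in the airway it is known to influence basal cell growth and differentiation. The 10 genes described here were listed by their roles in the pathway, with earlier results of these data known. They are BMP ligands (Bmp2, Bmp4, Bmp7), antagonists (Sostdc1, Bambi, Smad6, Smad7) and Id targets (Id1, Id2, Id3). All 10 were measured, each by 1 probe set with a single gene symbol, out of 14860 genes with such a probe set.

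Both samples were cultured mouse tracheal epithelial cells, 1 array from wild-type (Gprc5a+/+) and 1 from Gprc5a knockout (Gprc5a−/−) cells, and Gprc5a codes for an orphan G protein-coupled receptor induced by retinoic acid. The mice of both genotypes were 3 weeks old and had a background of C57 BL/6 × 129sv. The cells of both received no treatment and grew in K-SFM, a serum-free keratinocyte medium, to which bovine pituitary extract (50 µg/ml) and epidermal growth factor (5 ng/ml) were added. The labels do not say how many mice or cultures stand behind an array, so with 1 sample per group no value has an error and no difference has a test.

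Values are the authors' RMA expression values on the log2 scale, and differences are given as knockout minus wild type. A gene was counted as differing when the difference was at least 2-fold and the higher of its values exceeded 6.76, the median over every probe set that has a symbol. As a mark of background, the 95th percentile of 800 olfactory and vomeronasal receptor genes lay at 5.05. The median difference of all genes was -0.03, and their median absolute difference was 0.20. Gprc5a itself stood at 9.49 in wild-type cells and 4.05 in knockout cells, which is below background. Levels of different probe sets are not comparable with each other, so comparisons below are between samples for the same gene.

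Of the BMP ligands, Bmp7 was lower in the knockout and Bmp4 higher. Of the antagonists, Sostdc1 was lower and Bambi, Smad6 and Smad7 differed by less than 2-fold. Of the Id genes, Id1 was higher, while Id2 and Id3 had slightly lower values. In all, 2 of the 10 genes were counted as higher and 2 as lower, against 4.62% higher and 2.97% lower among the 7943 genes above the level filter. Without the filter the same 4 genes reached 2-fold, against 3.34% higher and 2.11% lower among all 14860 genes. Only 6 of the 10 genes passed the filter, and each of the 4 counted genes passed it by its value in 1 sample alone, so their share among those passing carries no weight.

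Promoter sequence was taken from RefSeq (GRCm38.p6), whose table held 4 of the 10 genes (Bmp4, Id2, Id3 and Smad6), as windows from 250 bases before to 10 bases after the annotated start. Bmp4 is shown as a ligand that differed between the samples, and Id2 and Smad6 as SMAD target genes in which a searched element was found. The elements were GTCTAGAC, the palindrome bound by SMAD proteins, and GGCGCC, a GC-rich element of BMP-responsive promoters. Each reads the same on both strands, and they do not overlap in these windows. Capitals mark a match.
Bmp4 (chr14:46390660-46390919, minus strand): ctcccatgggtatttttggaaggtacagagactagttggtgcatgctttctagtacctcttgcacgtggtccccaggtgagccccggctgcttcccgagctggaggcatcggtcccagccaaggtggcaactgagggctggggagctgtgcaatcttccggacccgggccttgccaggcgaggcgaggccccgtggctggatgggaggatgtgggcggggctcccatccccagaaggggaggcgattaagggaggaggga
Id2 (chr12:25096083-25096342, minus strand): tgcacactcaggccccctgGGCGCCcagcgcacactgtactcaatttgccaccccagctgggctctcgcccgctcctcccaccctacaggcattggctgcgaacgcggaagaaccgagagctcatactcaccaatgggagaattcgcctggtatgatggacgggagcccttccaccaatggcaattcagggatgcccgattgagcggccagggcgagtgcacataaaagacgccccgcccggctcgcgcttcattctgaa
Smad6 (chr9:64022050-64022309, minus strand): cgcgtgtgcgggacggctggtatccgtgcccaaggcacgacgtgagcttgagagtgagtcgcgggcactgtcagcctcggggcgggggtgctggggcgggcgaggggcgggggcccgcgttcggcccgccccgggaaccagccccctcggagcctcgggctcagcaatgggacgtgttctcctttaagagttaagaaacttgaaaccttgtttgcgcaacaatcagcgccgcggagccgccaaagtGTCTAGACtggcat

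In the Smad6 window the palindrome began at position -4 and crossed the start. The palindrome was present in 0.177% of the 32851 windows of the same length in the table. In the Id2 window GGCGCC began at position -231, and 9.96% of all windows held it. Neither element was found in the Bmp4 or Id3 windows. A match is a description of these letters, not evidence of binding.

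Among the ligands, Bmp7, known for its part in kidney and eye development and made by many epithelia, stood at 9.79 in wild-type cells and 5.06 in knockout cells. The wild-type value was well above the level filter and the knockout value was at the background level. The difference was -4.73, or 26.6-fold, rank 12 from the lowest of 14860 genes. A difference of this size in either direction was seen in 0.148% of all genes.

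Bmp4, which patterns the ventral foregut from which the trachea forms, went the other way. It stood at 5.64 in wild-type cells and 7.36 in knockout cells, a difference of 1.72 or 3.29-fold and rank 189 from the highest. Both values were above background, but only the knockout value passed the level filter.

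Bmp2, the ligand closest to Bmp4 in sequence, stood at 5.97 in wild-type cells and 5.00 in knockout cells. Its difference of -0.97, or 1.96-fold, lay just short of 2-fold, and neither value passed the level filter. The knockout value was below background. Of the ligands that were counted, Bmp7 was lower and Bmp4 higher, and Bmp2 was not counted.

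**Figure D1:**
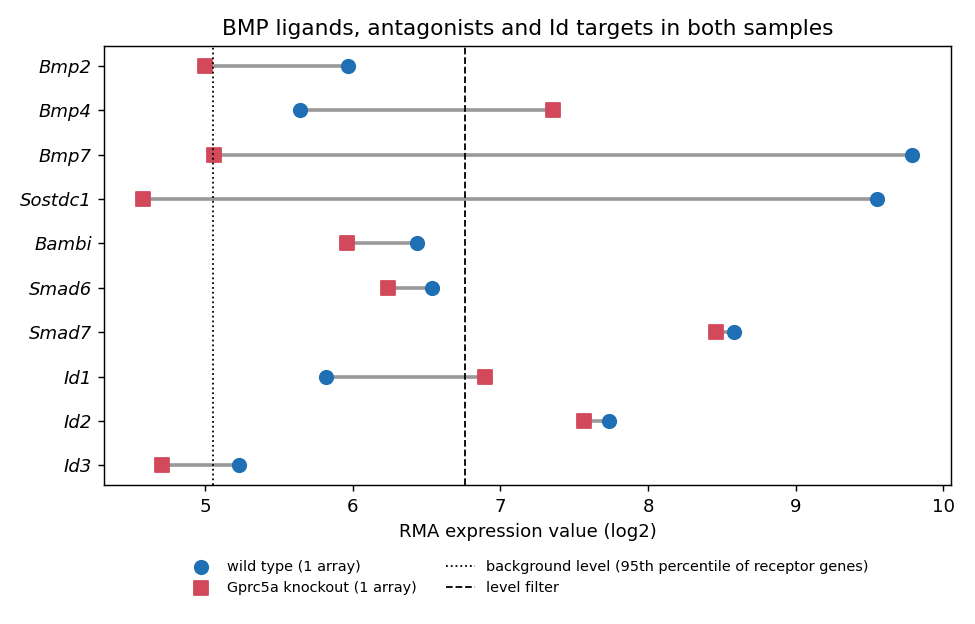
RMA expression values (log2, horizontal axis) of the 10 genes in the wild-type sample (circles) and the Gprc5a knockout sample (squares), 1 array each, with the background level (5.05) and the level filter (6.76) as vertical lines. Bmp7 and Sostdc1 span from above 9.5 in the wild type to 5.06 and 4.58 in the knockout, while Bmp4 and Id1 cross the filter in the other direction.

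Sostdc1 codes for a secreted protein that binds BMPs and also inhibits WNT signalling through LRP receptors. It stood at 9.55 in wild-type cells and 4.58 in knockout cells, below background. Its difference in the deposited values was -4.97, or 31.4-fold, rank 9 from the lowest of all genes. With the knockout value raised to the background level, the difference was -4.50, or 22.6-fold. The order of Sostdc1 and Bmp7 turned with this step, since Bmp7 stayed at -4.73, so neither can be called the larger.

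The inhibitors at the membrane and inside the cell differed by less than 2-fold. Bambi, a receptor-like protein without a kinase domain that blocks receptor complexes, stood at 6.43 in wild-type cells and 5.96 in knockout cells, a difference of -0.47. Smad6, which interferes mainly with BMP signalling, stood at 6.54 in wild-type cells and 6.24 in knockout cells, a difference of -0.30. Neither passed the level filter in either sample. Smad7, which inhibits both BMP and TGF-beta receptors, stood at 8.59 in wild-type cells and 8.46 in knockout cells and passed the filter in both. Its difference of -0.12 was smaller than the median absolute difference of all genes.

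The Id genes code for helix-loop-helix proteins without a DNA-binding region, and their values did not share a direction. Id1 stood at 5.82 in wild-type cells and 6.89 in knockout cells, a difference of 1.08 or 2.11-fold and rank 435 from the highest. It cleared the level filter by 0.14 in the knockout and did not reach it in the wild type. Id2 stood at 7.74 in wild-type cells and 7.57 in knockout cells, above the filter in both, and its difference of -0.17 was small, with 55.3% of all genes differing by as much or more. Id3 stood at 5.23 in wild-type cells and 4.70 in knockout cells, below background in the latter, a difference of -0.52. With its knockout value raised to the background level, the difference of Id3 was -0.17.

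Across the 10 genes, 8 had a lower value in the knockout and 2 a higher one, while 54.0% of all genes had a lower value. Their median difference was -0.39, and their median absolute difference was 0.75. Since the genes were listed with earlier results in view, these figures describe the list only. The 6 genes other than Bmp7, Sostdc1, Bmp4 and Id1 differed by -0.97 to -0.12. All 10 were above background in the wild type, and 7 were in the knockout, with Bmp2, Sostdc1 and Id3 below it. The 7 include Bmp7, whose knockout value of 5.06 was at the background level of 5.05.

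**Figure D2:**
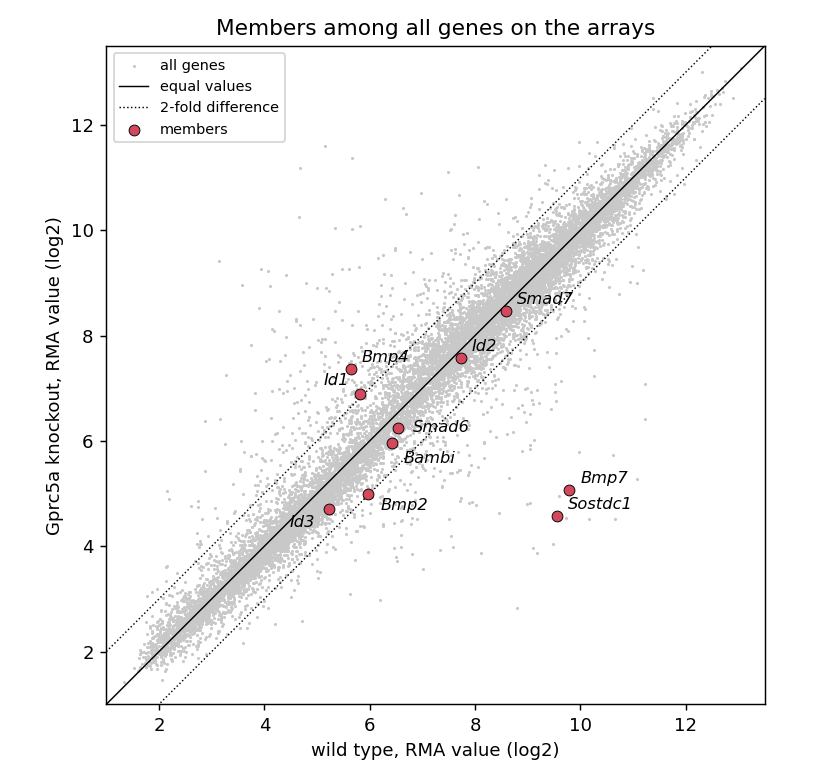
RMA values (log2) in the Gprc5a knockout (vertical axis) against the wild type (horizontal axis), 1 grey point per gene for 14860 genes, with the 10 genes named. The solid line marks equal values and the dotted lines a 2-fold difference. Bmp7 and Sostdc1 lie together far below the lines. Bmp4 lies above the upper dotted line and Id1 just above it, and Smad7 and Id2 lie near the line of equal values.

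The rest of the pathway was examined through 9 lists of genes by role, 77 genes in all, of which 70 were measured and 35 passed the level filter. Of these 35 genes, 5 were higher by 2-fold or more (14.3%) and 3 lower (8.57%). The same rule gave 4.62% and 2.97% among all genes above the filter. Fstl3, Tll1 and Msx2 among them passed the filter by the knockout value alone, which favours a higher knockout value. The median difference of the 70 genes was -0.10.

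None of the 11 other BMP-class ligands measured passed the filter in either sample. Gdf7 stood at 6.17 in wild-type cells and 5.87 in knockout cells, and Bmp8a at 5.93 and 5.48. The list's differences ran from -0.71 to 0.33, with a median of -0.14. Among the 12 ligands listed, only Bmp6 had no single-symbol probe set.

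Of the receptors, 4 of 7 passed the filter and none of these reached 2-fold. Among all genes above the filter 4.62% were higher and 2.97% lower, so with 4 genes this count says little. The type I receptor gene Bmpr1a stood at 10.58 in wild-type cells and 10.68 in knockout cells, and Acvr1, another type I receptor gene, at 9.31 and 9.42. Bmpr2, the BMP type II receptor gene, had a difference of 0.38, and Acvr2a, a type II receptor gene shared with activins, one of -0.38. Bmpr1b, a further type I receptor gene, is named for its size although it was outside the filter, after its values were seen. It stood at 5.74 in wild-type cells and 4.29, below background, in knockout cells, a difference of -1.46 that shrank to -0.69 with the knockout value raised to background. The median difference of the receptors was 0.06. Of 3 co-receptor genes measured, Rgma differed by -0.50 and Rgmb by -0.09.

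All 5 SMAD genes above the filter differed by less than 2-fold, against 4.62% higher and 2.97% lower among all genes above it. With 5 genes this count, too, says little. Smad1 had a difference of -0.35 and Smad5 one of -0.22, both being BMP-activated SMADs. The common partner Smad4 differed by -0.34, and Smad3, which carries TGF-beta and activin signals, by 0.22. The median of the 6 measured SMAD genes was -0.21.

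The largest single differences of the pathway lists, those of Tll1 and Fstl3, lay among the secreted modulators and the proteases that act on them. Both genes passed the filter by the knockout value alone. The median absolute difference was 0.63 for the proteases, 0.48 for the other known BMP target genes and 0.38 for the other secreted modulators. For the receptors it was 0.38, and for all genes 0.20. These medians include genes below background. Of 14 other secreted antagonists and modulators, 3 passed the filter. Fstl3, a follistatin-like protein that binds activins and some BMPs, stood at 6.23 in wild-type cells and 8.20 in knockout cells, a difference of 1.97 or 3.91-fold. Fst, follistatin, stood at 11.97 in wild-type cells and 10.88 in knockout cells, a difference of -1.09 or 2.13-fold. These related genes thus differed in opposite directions. Twsg1, a BMP-binding modulator, differed by -0.35. Noggin, the gene Nog, was below background in both samples, at 3.65 and 4.49.

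Tll1 and Bmp1 code for metalloproteinases that cleave the BMP antagonist chordin and trim procollagens, and Bmp1 is not itself a BMP ligand. Tll1 stood at 4.15 in wild-type cells, below background, and 8.12 in knockout cells. Its difference was 3.97 or 15.7-fold, and 3.07 or 8.38-fold with the wild-type value raised to background. Bmp1 stood at 10.55 in wild-type cells and 9.42 in knockout cells, a difference of -1.13. Furin, a protease that matures BMP precursors, differed by 0.04, and the related Pcsk7 by 0.08. Pcsk5, another protease of the list, was outside the filter. It stood at 4.25 in wild-type cells, below background, and 5.38 in knockout cells. Its difference of 1.13 shrank to 0.33 with the wild-type value raised to background.

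All 9 intracellular brakes of SMAD signalling passed the filter. Of these, 2 were higher by 2-fold or more and 0 lower, against 4.62% and 2.97% among all genes above the filter. Skil, a SMAD corepressor, stood at 7.83 in wild-type cells and 9.06 in knockout cells, a difference of 1.24. Ctdsp2, a phosphatase that acts on SMADs, stood at 7.48 and 8.49, a difference of 1.01. Ski, the corepressor related to Skil, differed by -0.60, and Tob2, of the TOB family of antiproliferative proteins, by 0.47. The median of the list was 0.01.

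Other genes known as BMP targets were divided. Of 11 measured, 5 passed the filter. Msx2, a homeobox gene, stood at 5.97 in wild-type cells and 7.11 in knockout cells, a difference of 1.14. Id4, the fourth Id gene, stood at 10.08 in wild-type cells and 9.08 in knockout cells, a difference of -1.0002 that lay at the 2-fold limit. The homeobox gene Dlx5 differed by -0.82 and the T-box gene Tbx2 by 0.48. With Id4 included, 1 of the 4 Id genes was higher, 1 was lower and the other two differed by less than 2-fold. The E protein genes Tcf3, Tcf4 and Tcf12, whose products ID proteins bind, differed by -0.07, -0.35 and -0.14.

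**Figure D3:**
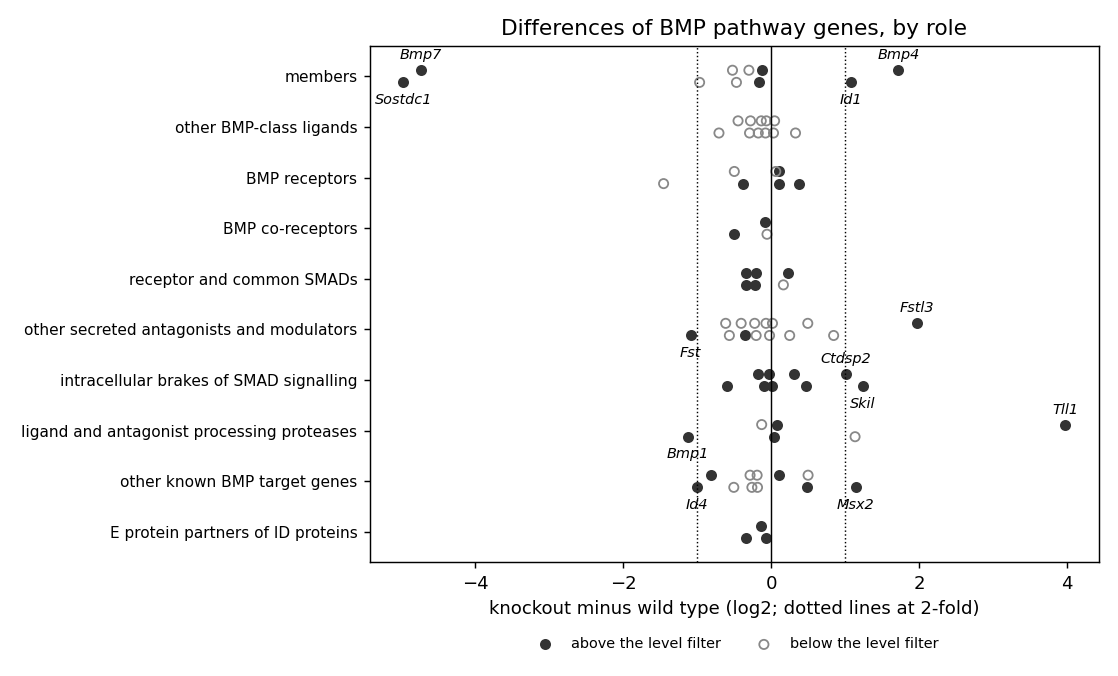
Difference between knockout and wild type (log2, horizontal axis) for each measured gene of the BMP pathway, grouped by role, with the 10 genes of the opening as the top row ("members"). Filled points passed the level filter, open points did not, dotted lines mark 2-fold, and genes counted as differing are named. Receptors and SMADs that passed the filter lie between the dotted lines, while Tll1 lies at 3.97 and Fstl3 at 1.97.

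The labelled cell type was checked against markers. Of 12 airway basal cell markers, 10 passed the filter and none differed by 2-fold, against 4.62% higher and 2.97% lower among all genes above it. The summed log2 level was 121.1 for wild-type and 120.9 for knockout cells. Single basal markers differed in both directions, from -0.39 for Krt17 to 0.69 for Krt15, and Cdh3 differed by 0.37. Of the 12, 4 had a higher and 8 a lower value in the knockout. Trp63, the basal cell transcription factor, stood at 10.95 and 10.76, and the epithelial gene Epcam at 12.30 and 11.89. Another epithelial gene, Krt18, a keratin of simple epithelia, was at 5.15 in wild-type cells and 11.61 in knockout cells. The sums of the 7 measured epithelial markers were 66.9 and 73.0. Krt18 alone carried the rise, since the differences of the others ran from -0.41 to 0.20. Krt19, a further keratin, was below background in both samples, at 4.98 and 4.65.

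Markers of other cells were mostly at or near background. Of 10 fibroblast markers, 2 passed the filter. These were Fn1, fibronectin, at 12.15 and 11.73, and Postn, periostin, at 4.28 in wild-type cells and 8.46 in knockout cells. The fibroblast sums were 55.6 and 58.3, and Postn alone carried the rise, since 8 of the 10 markers had a lower value in the knockout and the list's median difference was -0.14. The collagen genes Col1a1 (6.15 and 6.09), Col1a2 (5.98 and 5.74) and Col3a1 (5.37 and 5.21) were above background and below the filter in both samples. Pdgfra, Pdgfrb, Dcn, Lum and Thy1 were below background in both. Of 6 smooth muscle markers, Acta2 alone passed, at 5.16 in wild-type cells and 7.93 in knockout cells (sums 28.6 and 30.4), and the other 5 had lower values in the knockout. Of 6 cartilage markers Sox9 alone passed, at 10.14 and 9.70 (sums 34.4 and 33.3). None of 6 endothelial markers (sums 25.4 and 24.8) and none of 5 measured immune markers (sums 23.5 and 22.9) passed. Of 8 measured club and ciliated cell markers, 2 passed, both by the knockout value. Cyp2f2 was at 6.48 and 9.63, and Foxj1 at 6.22 and 8.97 (list sums 33.6 and 39.6). The other 6 were below background in both samples, and 3 of them had a lower value in the knockout. Their differences ran from -0.32 to 0.23, so Cyp2f2 and Foxj1 carried nearly all of the rise in the sum. The part of Postn, Acta2, Krt18, Cyp2f2 and Foxj1 in the differences of the BMP genes was not tested, and in these bulk samples fewer cells of a type and less RNA per cell cannot be told apart.

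**Figure D4:**
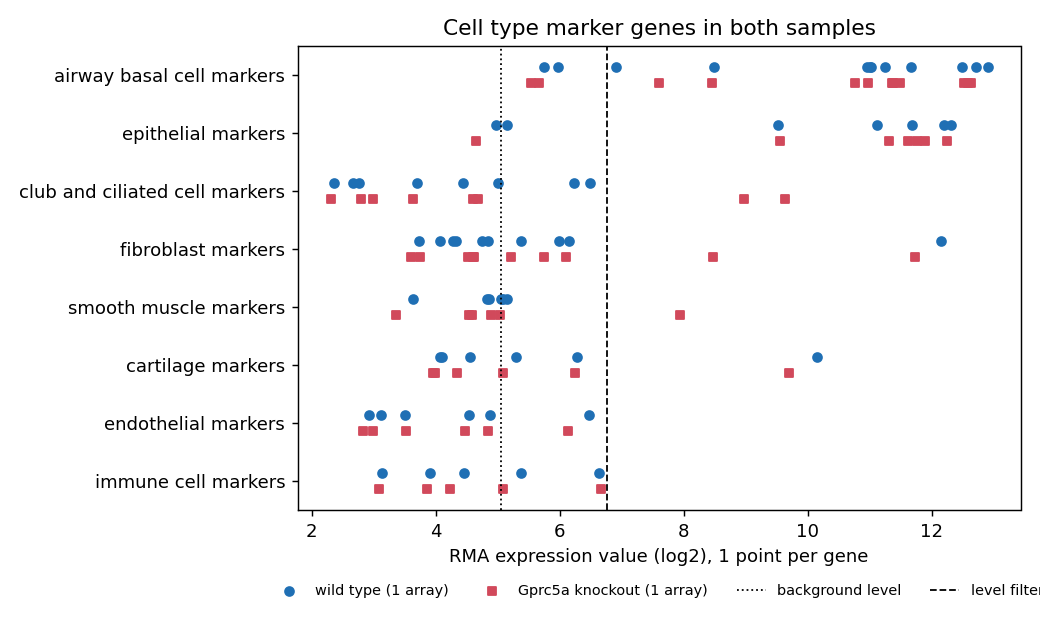
RMA values (log2, horizontal axis) of cell type marker genes in the wild-type sample (circles) and the Gprc5a knockout sample (squares), 1 point per gene and array, with the background level and the level filter as vertical lines. Basal and epithelial markers lie mostly above the filter in both samples, and endothelial and immune markers lie below it in both.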

How the data were processed

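Total RNA was labelled for whole-transcript arrays from 250 ng per sample, per the labels' protocols. The deposited log2 values were made by the authors with RMA and Affymetrix Expression Console, per the submitters' processing notes, which give no versions. Whether both arrays were normalized together, and with which genome build the probe sets were annotated, is not given in the sources used here. RMA as commonly run equalizes the arrays' distributions, which hides any change in total RNA per cell, and it is known to understate large ratios.

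The table held 23332 probe sets. The platform annotation gave 1 gene symbol for 14996, several for 1019 and none for 7317. For the 135 genes with several probe sets, the one with the highest mean was used. Differences, counts and medians were computed with Python 3.11.15 and pandas 2.3.3, and the counting was tested on simulated data. The number of arrays, 1 per group, limits the precision, and there is no test.

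The genes, lists and rules were chosen with earlier results of these data known. All 10 genes are named. Of each pathway and marker list, up to 4 genes above the level filter with the largest absolute differences were picked, or the 2 brightest where none passed, and not all picked marker genes are printed. Other genes were named after their values were seen, among them Nog, Bmpr1b, Pcsk5 and marker genes below the filter. A planned search for genes with values most like those of Sostdc1 and Bmp7 is not reported, since levels of different probe sets are not comparable.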

Additional observations from a re-analysis of the deposited data

How the results depend on the processing

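No paired analysis was possible because each genotype has 1 sample. The same 4 genes (Bmp4, Bmp7, Sostdc1 and Id1) were counted at 2-fold with low values raised to the background level, with differences centred on the median of all genes and without the level filter. Averaging probe sets could change no member, since each has 1 probe set. A 1.5-fold threshold cannot drop a gene, and it added none, against 11.0% higher and 7.7% lower among all genes above the level filter. At 3-fold, Id1 dropped out and 3 were counted, against 2.19% higher and 1.49% lower among the same filtered genes. With both values required to pass the level filter, 0 of the 10 genes were counted, because only Id2 and Smad7 passed in both samples, against 2.25% higher and 1.45% lower among all genes so filtered. Of the 35 pathway genes above the filter, 8 were counted in the main setting, against 4.62% higher and 2.97% lower among all genes above it. With both values required to pass, 5 of 31 pathway genes were counted, against 2.25% higher and 1.45% lower among all genes so filtered. At 3-fold, 2 of 35 were counted, both higher, against 2.19% higher and 1.49% lower among all genes above the filter. With centring 7 were counted, since Id4 lay at the limit. Gprc5a differed by -4.43 with its knockout value raised to background, in place of -5.44. Centring shifted every difference by the same 0.03, and raising low values could move only Bmp2, Sostdc1 and Id3, whose differences became -0.91, -4.50 and -0.17. Values near background limit the ratios of Bmp7, Sostdc1 and Tll1. Without replicates the spread between cultures is unknown.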

Other observations

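Activin and inhibin genes, whose products share receptors and the antagonists Fst and Fstl3 with BMPs, were examined in a list added after the other values were seen. Of 13 genes listed, 8 had a single-symbol probe set and 2 passed the level filter. None reached 2-fold, against 4.62% higher and 2.97% lower among all genes above the filter. Inhba, which codes for the activin A subunit, stood at 9.15 in wild-type cells and 8.91 in knockout cells, a difference of -0.24. Acvr1b, an activin type I receptor gene, stood at 8.16 in wild-type cells and 7.98 in knockout cells, a difference of -0.18. The inhibin alpha gene Inha was just under the filter in both samples, at 6.46 and 6.75. The list's differences ran from -0.53 to 0.29, with a median of -0.21.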
